A study of Mus musculus with 15 samples.

Results

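TGF-beta activation and signalling was followed through 10 genes in Foxp3+ regulatory T cells, the T cells that hold immune responses in check. The genes were chosen by name, for their place in the pathway, from the 45706 gene identifiers in the deposited count table. Earlier results of these data were known when they were chosen. They are Tgfb1, which encodes the cytokine; Lrrc32, Itgb8 and Furin, whose products dock, release and process it; Tgfbr1 and Tgfbr2, which encode its receptors; Smad3, its signal carrier; and Smad7, Ski and Skil, its inhibitors. All 10 passed the filter on low counts and were among the 18423 genes tested.

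Foxp3+ T cells were sorted from adult RelB-dDC mice and from littermate controls, all of strain C57BL/6 and all carrying a Foxp3 reporter by backcross. RelB-dDC is known as a strain that lacks RelB, a subunit of the transcription factor NF-kB, in dendritic cells. The labels do not spell the name out, and they name neither the promoter behind the deletion nor the animals behind each library. There were 2 dDC and 2 control libraries of peritoneal cavity cells, 2 dDC and 3 control libraries of thymus cells, and 3 dDC and 3 control libraries of spleen cells, 15 in all. Since nothing in the labels says that the libraries of a group came from separate animals, the p-values measure the spread between these libraries, which may be partly technical. RelB was deleted in another cell type than the one sorted, so its transcript in these libraries does not check the genotype labels.

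TGF-beta is made as a precursor that furin, a protease of the secretory pathway, cuts into the cytokine and a propeptide that stays wrapped around it and keeps it latent. Regulatory T cells hold this latent complex on their surface through GARP, the product of Lrrc32, and the integrin alpha-v beta-8, whose beta chain is the product of Itgb8, binds the propeptide and frees the cytokine. The freed cytokine joins the type II receptor to the type I receptor, which phosphorylates Smad2 and Smad3; these enter the nucleus with Smad4, where SKI and SKIL (SnoN) repress their targets, while Smad7 blocks the receptor. In T cells, signalling through this pathway is known to sustain regulatory T cells and to restrain effector T cells.

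The sites that furin and the integrin act on lie in a single coding exon of Tgfb1, exon 5 of 7, at chr7:25697125-25697272 on the plus strand of mm10. It is shown because 2 of the activating proteins followed below, furin and the beta-8 integrin, act on the stretches it encodes. In the sequence, taken from the GENCODE transcript of the same build, the first capitals mark the 3 codons of the integrin-binding site (codons 244 to 246 of 390) and the second capitals mark the 4 codons of the furin site (codons 275 to 278), with 28 codons between them.
Tgfb1 exon: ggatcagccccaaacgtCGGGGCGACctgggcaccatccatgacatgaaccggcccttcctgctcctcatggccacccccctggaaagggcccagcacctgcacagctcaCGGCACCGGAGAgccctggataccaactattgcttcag

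Per kilobase of exon, the transcripts of the docking protein, the nuclear inhibitor SKIL and the type II receptor were the most abundant of the 10, and the transcript of the cytokine itself was the least. Levels are given in CPM, counts scaled to a common library size with TMM factors, and between genes only per kilobase of exon (CPM per kb). The exon lengths are the deposited ones. They were 4785 bases for Tgfbr2 and 9694 for Skil, against 8092 and 6717 in the longest coding transcript. The order of the genes under other lengths was not tested. Averaged over all 15 libraries, Lrrc32 stood at 34.3 CPM per kb, above 88.4% of the genes tested, and Skil stood at 33.5. Tgfbr2 (21.4), Ski (14.6), Tgfbr1 (11.8), Smad3 (10.6) and Smad7 (9.08 CPM per kb) followed. Itgb8 (4.64), Furin (2.49) and Tgfb1 (1.32 CPM per kb) came last, and Tgfb1 lay above 32% of the genes tested.

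The order differed between tissues. In thymus controls Skil led with 68.1 ± 12.5 CPM per kb (SD, n = 3), ahead of Lrrc32 with 40.3 ± 3.33 and Tgfbr2 with 23.5 ± 2.74. Tgfbr2, Tgfbr1 (22.3 ± 3.51) and Ski (20.9 ± 2.24 CPM per kb) lay within their spread of each other there. In spleen controls Lrrc32 (27.8 ± 5.30), Skil (25.4 ± 6.57) and Tgfbr2 (21.0 ± 3.09 CPM per kb) were likewise not apart beyond their spread. In the 2 peritoneal controls Lrrc32 led with 38.1 ± 7.94 CPM per kb, Skil ranked 5 of the 10 with 10.98 ± 4.21 and Itgb8 last with 1.36 ± 1.21 CPM per kb. Tgfb1 (1.41 ± 0.598) and Furin (1.95 ± 0.573 CPM per kb) lay within the spread of Itgb8 there.

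**Figure D1:**
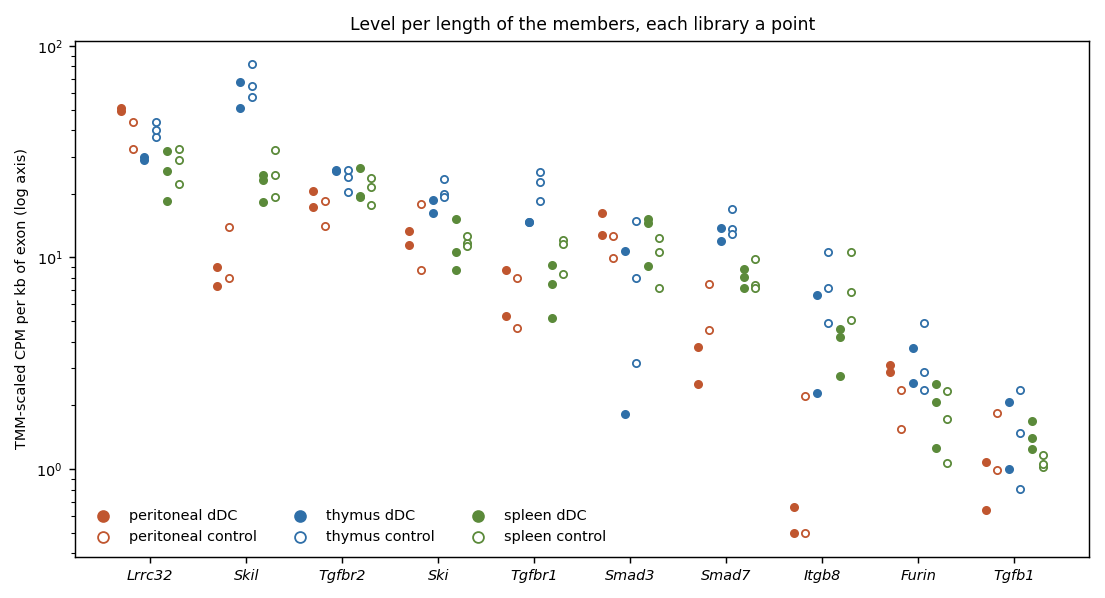
Level per length of the 10 genes, ordered by their mean, on a log axis of TMM-scaled CPM per kilobase of exon; each point is a library. Lrrc32 and Skil have the highest means and Tgfb1 the lowest, and the peritoneal points of Skil and Itgb8 lie below those of the other tissues.

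Tgfb1 was represented by few reads in every library, between 32 and 111. Its levels were 1.65 and 2.78 CPM in peritoneal dDC libraries and 4.70 and 2.53 CPM in peritoneal controls, 2.57 and 5.30 CPM in thymus dDC libraries and 3.78, 6.05 and 2.07 CPM in thymus controls, and 4.33, 3.19 and 3.59 CPM in spleen dDC libraries and 2.63, 2.99 and 2.69 CPM in spleen controls. The tissues overlapped, and the thymus controls alone covered most of the range of all 15 libraries. The transcript is rich in G and C, 62.5% of its bases, above 99% of the 12916 tested genes with a coding transcript. The GC-richest 10% of these genes had a median level of 2.44 CPM per kb, against 4.95 to 6.62 CPM per kb in the other groups of that size, and the part of base composition in the low level was not tested. None of the exon bases of the 10 genes is shared with another annotated feature.

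Library totals lay between 15714286 and 24332044 counts. The 5 regulatory T cell markers had counts in every group, and their summed level was 2966 to 3054 CPM in peritoneal dDC libraries and 2305 to 2401 CPM in peritoneal controls, 3455 to 3521 CPM in thymus dDC libraries and 3359 to 4041 CPM in thymus controls, and 2426 to 2558 CPM in spleen dDC libraries and 2449 to 2673 CPM in spleen controls. The 5 general T cell markers summed to 5365 to 7392 CPM in the peritoneal cavity, 7163 to 8466 CPM in thymus and 8543 to 9579 CPM in spleen. The 8 B cell markers summed to 1321 to 2287 CPM in peritoneal dDC libraries and 1088 to 2125 CPM in peritoneal controls, against 58.8 to 87.1 CPM in thymus dDC libraries and 40.7 to 62.5 CPM in thymus controls, and 396 to 724 CPM in spleen dDC libraries and 348 to 1074 CPM in spleen controls. Pax5 and Blk were among those at 0 in thymus dDC libraries. The 10 macrophage markers summed to 1563 CPM in peritoneal control 2, against 58.6 CPM in peritoneal control 1, 137 to 239 CPM in peritoneal dDC libraries, 3.22 to 26.5 CPM in thymus and 97.9 to 367 CPM in spleen. Mertk and Fcgr1 were at 0 in both peritoneal controls. The 6 erythroid markers summed to 2396 to 4214 CPM in spleen dDC libraries and 2941 to 7992 CPM in spleen controls, and to at most 398.5 CPM in any thymus or peritoneal library. The part of these markers in the tissue differences was not tested. Where leaving out peritoneal control 2 ended or brought a call on the 10 genes within a genotype, the value without it is given.

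Between tissues, transcripts of the nuclear and receptor-level inhibitors SKIL and Smad7 and, in controls, of the type I receptor were lower in peritoneal than in thymic regulatory T cells. Skil differed the most clearly: its level in the peritoneal cavity was 0.161 times that in thymus among controls and 0.139 times among dDC mice. In peritoneal against thymus controls, 3 of the 10 genes passed an adjusted p of 0.05 (edgeR's quasi-likelihood test, Benjamini-Hochberg over all genes), all of them lower, where 2.47% of all genes passed and 1.13% were lower. In peritoneal against thymus dDC libraries 2 of the 10 passed, both lower, where 1.35% of all genes passed and 0.586% were lower. The 15 libraries are of bulk cells, so fewer cells with a transcript and less of it per cell cannot be told apart.

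Skil encodes SKIL, a repressor of Smad target genes that is itself known as a TGF-beta target. It had 87.8 and 71.1 CPM in peritoneal dDC libraries and 77.5 and 135 CPM in peritoneal controls. In thymus it had 491 and 652 CPM in dDC libraries and 558, 629 and 794 CPM in controls. Spleen lay between, with 177, 237 and 224 CPM in dDC libraries and 237, 187 and 314 CPM in controls. No library of any of the 3 tissues overlapped another tissue's range.

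The log2 difference of Skil between peritoneal cavity and thymus was -2.63 (SE 0.30, adjusted p = 0.000785, edgeR) in controls and -2.85 (adjusted p = 0.000971, edgeR) in dDC mice, and both calls held without each of the 15 libraries in turn. Without peritoneal control 2, the library with the high macrophage markers, the difference in controls was -3.09 (adjusted p = 0.00266, edgeR). Between thymus and spleen controls Skil was higher by 1.42 (adjusted p = 0.0249, edgeR), the only 1 of the 10 genes called there, where 0.603% of all genes passed and 0.157% were higher. In dDC mice the thymus to spleen difference was 1.43 but missed the threshold (adjusted p = 0.0835, edgeR), and 0 of the 10 genes were called, against 0.179% of all genes; 3 of the 10 had an unadjusted p under 0.05, against 7.75% of all genes, and DESeq2 and limma each called 1, Skil. Between peritoneal cavity and spleen Skil differed by -1.42 in dDC mice (adjusted p = 0.0409, edgeR), the only 1 of the 10 called by edgeR, where 0.906% of all genes passed and 0.423% were lower; limma did not call it (adjusted p = 0.107) and called Lrrc32 instead. In controls it was -1.21 (adjusted p = 0.0877, edgeR) and 0 of the 10 were called, against 0.792% of all genes; 3 of the 10 had an unadjusted p under 0.05, against 10.6% of all genes, DESeq2 called 2 (Itgb8 and Skil) and limma 0.

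The 2 Skil calls against spleen were less stable than those against thymus. The thymus to spleen call in controls was lost without spleen control 1, spleen control 2, thymus control 2 or thymus control 3 (adjusted p up to 0.113, edgeR). The peritoneal to spleen call in dDC mice held without spleen control 2, spleen control 3, peritoneal control 1 or peritoneal control 2 and was lost without any of the other libraries, with an adjusted p of up to 0.428 by edgeR.

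Smad7, the inhibitory Smad that ties up the type I receptor and is known as a target of the pathway, took the same order of tissues as Skil. It had 17.04 and 11.4 CPM in peritoneal dDC libraries and 20.5 and 33.8 CPM in peritoneal controls, 62.4 and 54.1 CPM in thymus dDC libraries and 76.7, 61.6 and 58.7 CPM in thymus controls, and 32.6, 39.8 and 36.5 CPM in spleen dDC libraries and 44.5, 33.5 and 32.5 CPM in spleen controls. Every thymus library was above every spleen and peritoneal library, and peritoneal control 2 alone reached the spleen range. The log2 difference between peritoneal cavity and thymus was -2.03 in dDC mice (adjusted p = 0.00665, edgeR) and -1.27 in controls (adjusted p = 0.0349, edgeR). The call in dDC mice was lost without thymus dDC 1 or peritoneal dDC 2 (adjusted p up to 0.0986, edgeR). The call in controls remained in 4 of the 15 fits that each left out a library, those without spleen control 1, spleen control 3, peritoneal dDC 1 or peritoneal dDC 2, and without peritoneal control 2 the difference was -1.67 with an adjusted p of 0.0539 by edgeR. Between peritoneal cavity and spleen in dDC mice the difference of -1.35 lay at the threshold (adjusted p = 0.0501, edgeR). It involves neither peritoneal control. It was called without peritoneal control 1 and also without peritoneal control 2, where it stayed at -1.35. In the fits without each of the other libraries it was not called.

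Ski, which encodes the related repressor SKI, was also at its highest in thymus, at 90.4 and 104 CPM in dDC libraries and 111, 107 and 130.4 CPM in controls. It ranged from 48.5 to 99.97 CPM in the peritoneal cavity and from 48.7 to 84.9 CPM in spleen, and peritoneal control 2 held the value of 99.97 CPM. None of its tissue differences was called. The nearest, thymus over spleen in controls, was 0.81 on the log2 scale (adjusted p = 0.28, edgeR). Without peritoneal control 2, the peritoneal difference in controls moved from -0.65 to -1.26 against thymus and from 0.16 to -0.45 against spleen.

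Smad3, the receptor-activated Smad, varied most within the thymus groups. Its libraries ranged from 55.3 to 89.7 CPM in the peritoneal cavity, from 10.1 to 82.3 CPM in thymus and from 39.8 to 84.7 CPM in spleen. The 2 thymus dDC libraries had 10.1 and 59.5 CPM, the 3 thymus controls ran from 17.6 to 82.3 CPM, and no tissue difference was called. In dDC mice the peritoneal range lay above the thymus range, with a log2 difference of 1.20 (adjusted p = 0.581, edgeR). Ranges were apart for 38.9% of all genes in that comparison.

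**Figure D2:**
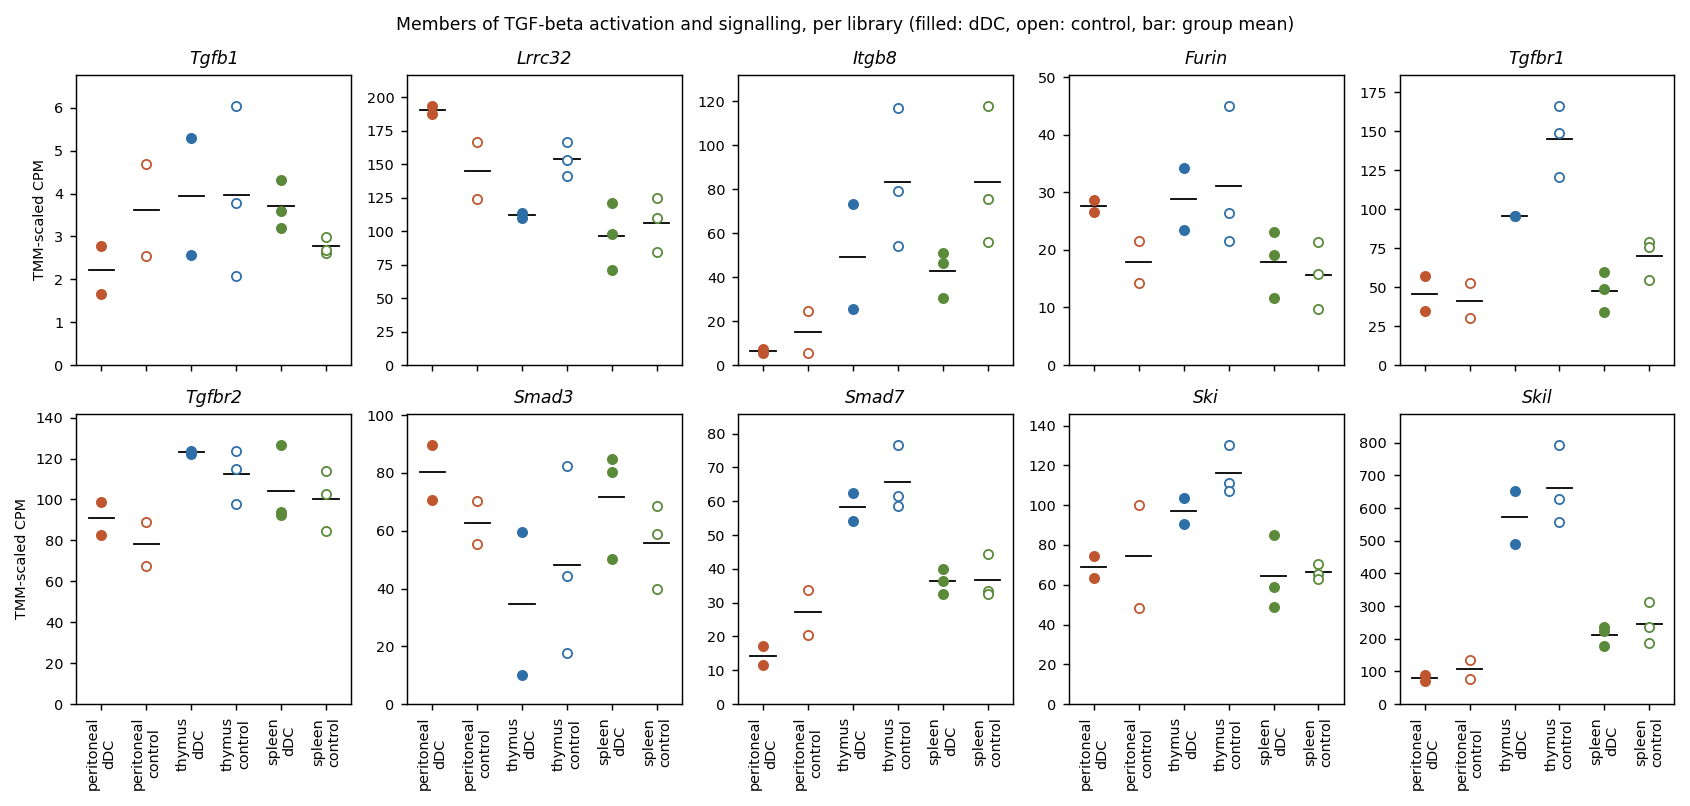
TMM-scaled CPM of each of the 10 genes in every library, 1 panel a gene with its own axis from 0; filled points are dDC and open points control libraries, and bars are group means. Skil, Smad7 and Tgfbr1 are highest in thymus, and Itgb8 is lowest in the peritoneal cavity.

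Of the receptors, edgeR called the type I receptor gene Tgfbr1 in controls and did not call the type II receptor gene Tgfbr2. Tgfbr1 had 56.9 and 34.7 CPM in peritoneal dDC libraries and 52.4 and 30.3 CPM in peritoneal controls, 95.8 and 95.7 CPM in thymus dDC libraries and 121, 149 and 166 CPM in thymus controls, and 49.0, 60.0 and 33.9 CPM in spleen dDC libraries and 78.7, 54.8 and 76.0 CPM in spleen controls. Every thymus library was above every other library, while peritoneal cavity and spleen overlapped. Thymus over spleen in controls was 1.06, called by DESeq2 (adjusted p = 0.0095) but not by edgeR (adjusted p = 0.167) or limma (adjusted p = 0.072). The peritoneal to thymus difference was -1.81 in controls (95% interval -2.54 to -1.09, adjusted p = 0.0146, edgeR) and -1.06 in dDC mice (95% interval -1.81 to -0.31, adjusted p = 0.207, edgeR). DESeq2 called the difference in dDC mice as well (adjusted p = 0.0381), and limma did not (adjusted p = 0.151). The call in controls was lost without thymus control 3 or without peritoneal control 2, where the difference was -1.47 (adjusted p = 0.159, edgeR).

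Tgfbr2 was among the steadiest of the 10, between 67.5 and 127 CPM in all 15 libraries. It ranged from 67.5 to 99.0 CPM in the peritoneal cavity, from 97.9 to 124 CPM in thymus and from 84.7 to 127 CPM in spleen. Its peritoneal to thymus difference was -0.52 in controls (adjusted p = 0.25, edgeR) and -0.44 in dDC mice (adjusted p = 0.485, edgeR). Whether the fall of Tgfbr1 exceeded that of Tgfbr2 was not tested.

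Among the genes that dock and release the cytokine, Itgb8 was lowest in the peritoneal cavity, and Lrrc32 was highest there in dDC mice; in controls Lrrc32 averaged 145.2 CPM in the peritoneal cavity and 153.9 CPM in thymus. Itgb8 had 7.31 and 5.50 CPM in peritoneal dDC libraries and 5.53 and 24.5 CPM in peritoneal controls. Thymus had 25.4 and 73.3 CPM in dDC libraries and 54.1, 79.2 and 117 CPM in controls, and spleen had 30.4, 50.8 and 46.5 CPM in dDC libraries and 75.7, 118 and 56.1 CPM in controls. All peritoneal libraries lay below all others, 3 of the 4 at under 8 CPM, and the exception was peritoneal control 2.

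With all 15 libraries, edgeR called none of these Itgb8 differences in a single genotype, although they were among the largest in size of the 10. The peritoneal to thymus difference was -2.94 in dDC mice (95% interval -4.49 to -1.40, adjusted p = 0.0739, edgeR) and -2.48 in controls (95% interval -3.92 to -1.04, adjusted p = 0.0804, edgeR). The peritoneal to spleen difference was -2.73 in dDC mice (adjusted p = 0.113, edgeR) and -2.48 in controls (adjusted p = 0.146, edgeR). DESeq2 called all 4 and limma called none. Without the filter on low counts edgeR called 3 of the 4, with adjusted p of 0.021 and 0.032 against thymus in dDC mice and controls and 0.0311 against spleen in dDC mice, and 0.061 against spleen in controls. Without peritoneal control 2, edgeR also called the peritoneal to thymus difference in dDC mice and in controls (-3.91). It called the peritoneal to spleen difference in dDC mice as well. The 2 differences in dDC mice do not involve that library and stayed at -2.94 and -2.73. Both were also called without peritoneal control 1, a library they do not involve either. In the fits without each of the other libraries neither was called.

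Lrrc32, the gene of GARP, had 188 and 194 CPM in peritoneal dDC libraries and 167 and 124 CPM in peritoneal controls, 114 and 110.1 CPM in thymus dDC libraries and 141, 167 and 153 CPM in thymus controls, and 70.9, 97.6 and 121 CPM in spleen dDC libraries and 84.6, 125 and 109.7 CPM in spleen controls. In dDC mice the peritoneal libraries stood above all thymus and spleen libraries. In controls the peritoneal libraries overlapped both other tissues. The peritoneal to spleen difference was 0.98 in dDC mice (adjusted p = 0.0701, edgeR) and 0.45 in controls (adjusted p = 0.498, edgeR). The difference in dDC mice was called by DESeq2 (adjusted p = 0.00223), by limma (adjusted p = 0.0402) and by edgeR without the filter on low counts (adjusted p = 0.047).

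Furin, the gene of the protease that cuts the precursor, ranged from 14.2 to 28.6 CPM in the peritoneal cavity, from 21.6 to 45.0 CPM in thymus and from 9.76 to 23.1 CPM in spleen. The largest of its tissue differences was thymus over spleen in controls, 0.98 on the log2 scale, with an adjusted p of 0.444 by edgeR. The tissue differences of Tgfb1 had wide intervals, such as -1.68 to 1.42 around -0.13 for peritoneal against thymus controls, and a change of 2-fold in either direction lay within it.

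Averaging the tissue differences over controls and dDC mice, a contrast added after the data were seen, brought more of the 10 past the threshold. For peritoneal cavity over thymus 4 were called, all lower, where 5.61% of all genes passed and 2.58% were lower: Skil (-2.74, adjusted p = 2.38e-05, edgeR), Smad7 (-1.65, 0.000645), Tgfbr1 (-1.44, 0.00394) and Itgb8 (-2.71, 0.00649). For peritoneal cavity over spleen 4 were called, where 2.89% of all genes passed, 1.66% lower and 1.23% higher: Skil (-1.32, adjusted p = 0.00405, edgeR), Itgb8 (-2.60, 0.0113) and Smad7 (-0.89, 0.0311) were lower and Lrrc32 (0.72, 0.0304) was higher. For thymus over spleen 2 were called, both higher, where 1.32% of all genes passed and 0.418% were higher: Skil (1.43, adjusted p = 0.00214, edgeR) and Tgfbr1 (1.03, 0.0326).

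**Figure D3:**
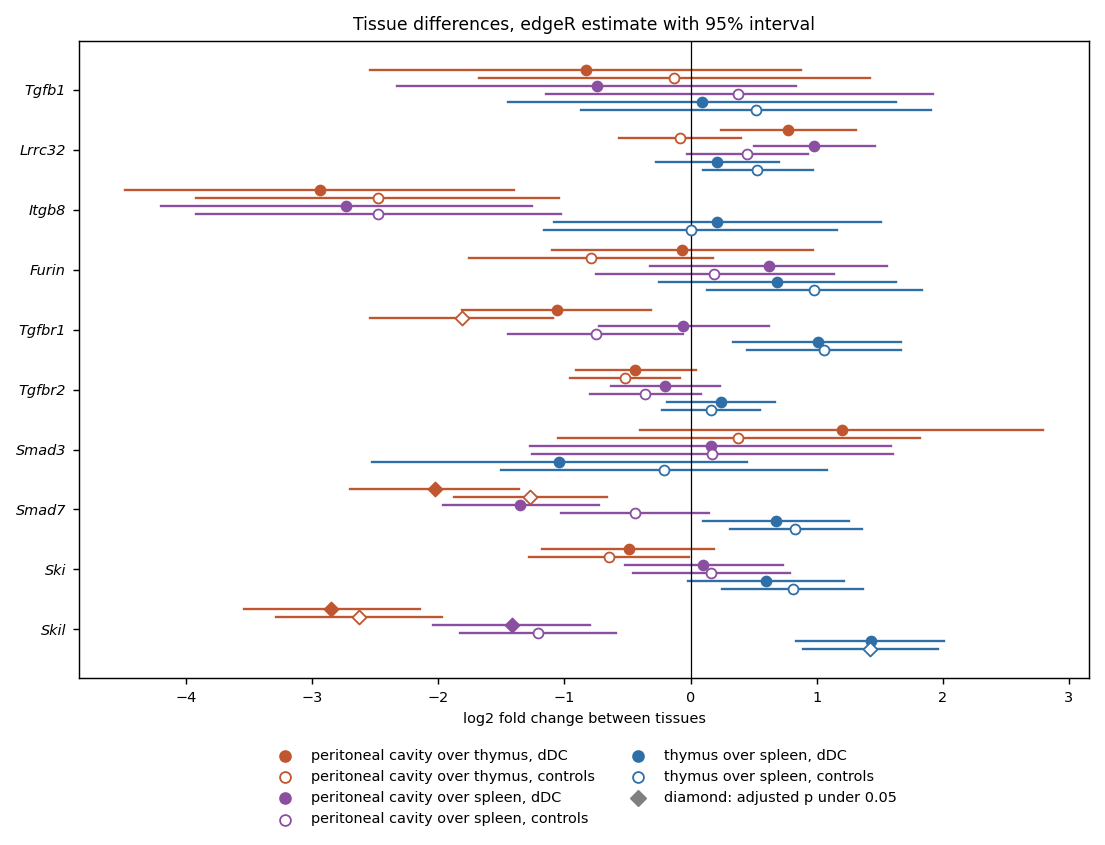
Log2 differences between tissues for the 10 genes, with 95% intervals from the edgeR fit; diamonds mark an adjusted p under 0.05. Skil is at -2.63 and -2.85 for peritoneal cavity over thymus, and the intervals of Tgfb1, Itgb8 and Smad3 are the widest.

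Group ranges that do not overlap were counted as a description, beside the share of all genes tested. The 10 genes were chosen with earlier results of these data known, so these shares describe the set and do not test it. In peritoneal against thymus libraries the ranges were apart for 8 of the 10 genes in dDC mice, against 38.9% of all genes, and for 6 of the 10 in controls, against 28.4%. In peritoneal against spleen libraries they were apart for 6 of the 10 in dDC mice, against 28.4% of all genes, and for 3 of the 10 in controls, against 25%. In thymus against spleen libraries they were apart for 5 of the 10 in dDC mice, against 22.7% of all genes, and for 6 of the 10 in controls, against 14.8%. At an unadjusted p under 0.05 there were 5 of the 10 for peritoneal against thymus in dDC mice, against 11.3% of all genes, and 6 in controls, against 14.1%. There were 4 for peritoneal against spleen in dDC mice, against 8.64% of all genes, and 6 for thymus against spleen in controls, against 9.79%. The median log2 difference of the 10 genes was -0.66 in dDC mice and -0.72 in controls for peritoneal cavity over thymus, beside 0.02 and -0.03 for all genes tested. B cell markers were higher in all peritoneal than in all thymus libraries, and their part in these differences was not tested.

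Promoters of 7 of the 10 genes (9 promoters) were matched in the RefSeq table of build GRCm38.p6; Lrrc32, Smad7 and Skil were not matched. The 250 bases before each RefSeq start site were searched for CAGAC, the core that Smad3 and Smad4 are known to bind, on both strands (GTCTG on the other). The gene models behind the counts start elsewhere in some cases: all 250 bases for Itgb8 and 57 of the 250 bases for Ski lay in exons of the same gene as counted. Both Tgfbr1 promoters lay outside its counted exons, the second inside the gene, and they are shown, with any match in capitals, because the Tgfbr1 transcript was lower in the peritoneal cavity than in thymus among controls.
First Tgfbr1 promoter (chr4:47352972-47353221, plus strand): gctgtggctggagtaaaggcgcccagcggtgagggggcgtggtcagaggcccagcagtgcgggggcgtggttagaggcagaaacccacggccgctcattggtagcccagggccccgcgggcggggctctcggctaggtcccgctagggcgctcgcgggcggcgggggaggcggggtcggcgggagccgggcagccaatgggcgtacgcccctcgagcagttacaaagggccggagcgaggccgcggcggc
Second Tgfbr1 promoter (chr4:47385966-47386215, plus strand): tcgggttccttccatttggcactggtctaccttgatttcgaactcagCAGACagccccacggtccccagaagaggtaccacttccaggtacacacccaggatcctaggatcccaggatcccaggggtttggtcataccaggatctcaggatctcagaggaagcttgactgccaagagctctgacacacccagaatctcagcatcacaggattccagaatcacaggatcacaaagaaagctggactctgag

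The first Tgfbr1 promoter held 0 matches and 29 CpG pairs in 74.8% GC, and the second held 1 match and 3 CpG pairs in 52.8% GC. The median of all 32851 promoters of that length was 6 CpG pairs and 52.4% GC. Of the other promoters searched, the first of Furin held 2 matches and the second 1. Those of Tgfbr2 and Itgb8 held 1 each, and those of Ski, Tgfb1 and Smad3 held 0. The motif was present in 42.2% of all 32851 promoters, and at least 2 matches in 11.7%. A match is therefore common and is a description of the letters alone.

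Beyond the 10 genes, pathway genes lower in the peritoneal cavity included Itgae, which encodes the integrin alpha-E chain (CD103) and is a known TGF-beta target in T cells. The wider pathway was followed in 4 lists of 73 genes, of which 64 were tested. These lists too were chosen with earlier results of these data known. Itgae had 31.8 and 51.2 CPM in peritoneal dDC libraries and 14.5 and 2.03 CPM in peritoneal controls, against 553 and 549 CPM in thymus dDC libraries and 296, 301 and 217 CPM in thymus controls, and 195, 164 and 195 CPM in spleen dDC libraries and 79.3, 83.0 and 92.8 CPM in spleen controls. No library overlapped another tissue's range. Peritoneal cavity against thymus, Itgae differed by -3.73 in dDC mice (adjusted p = 0.0103, edgeR) and by -5.02 in controls (adjusted p = 0.00139, edgeR). The difference in controls was -4.23 (adjusted p = 0.00043, edgeR) without peritoneal control 2. The call in dDC mice was lost without peritoneal dDC 1 or peritoneal dDC 2 (adjusted p up to 0.107, edgeR).

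Of the 18 target genes tested, 3 fell and none was higher in peritoneal against thymus controls, where 2.47% of all genes passed and 1.13% were lower. Besides Itgae these were Rgs16, a regulator of G protein signalling (-5.77, adjusted p = 0.00147, edgeR), and Ldlrad4, whose product restrains Smad signalling (-1.50, 0.0435). Rgs16 had few reads in the peritoneal controls, 22 and 24 counts or 1.08 and 1.52 CPM. In thymus controls it had 68.8, 45.15 and 99.05 CPM. The median log2 difference of the target list was -0.83, beside -0.03 for all genes tested. Ldlrad4 was called in 3 of the 15 fits that each left out a library and had an adjusted p of 0.346 by edgeR without peritoneal control 2. Of the 23 Smads and regulators tested, Pmepa1, whose product also restrains Smad signalling, fell (-2.34, adjusted p = 0.031, edgeR). It was not called without thymus control 1, 2 or 3 or without peritoneal control 2 (-1.65, adjusted p = 0.118, edgeR). No gene of the 8 receptors tested was called. Of the 15 ligand, latency and activation genes tested, Nrp1 fell (-0.50, adjusted p = 0.0288, edgeR) and Itgb1 rose (1.18, adjusted p = 0.00152, edgeR). The Itgb1 call held without each of the 15 libraries. The Nrp1 call was lost without the filter on low counts (adjusted p = 0.0567, edgeR) and without spleen dDC 3, peritoneal control 1, thymus control 1, 2 or 3 or peritoneal control 2, where the difference was -0.47 (adjusted p = 0.233, edgeR).

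In peritoneal against thymus dDC libraries, where 1.35% of all genes passed, the calls on the lists were Itgae lower and Itgb1 (1.03, adjusted p = 0.0111, edgeR) and Itgb3 (2.97, adjusted p = 0.0484, edgeR) higher. Itgb3, an integrin beta chain of platelets and activated cells, stood at 278 and 163 CPM in peritoneal dDC libraries. It is itself 1 of the 7 platelet markers and made up most of their sum there, 283 and 170.0 CPM. It was called in 5 of the 15 fits that each left out a library, and the Itgb1 call was lost without thymus dDC 1, thymus dDC 2 or peritoneal dDC 1 (adjusted p up to 0.0938, edgeR). Against spleen, peritoneal controls had Itgae (-3.35, adjusted p = 0.0258, edgeR) and Rgs16 (-4.82, 0.0097) lower and Itgb1 (0.80, 0.0375) higher, where 0.792% of all genes passed. Without peritoneal control 2, Rgs16 (-5.08, adjusted p = 0.102, edgeR) and Itgb1 (0.89, adjusted p = 0.138, edgeR) were not called and Itgae was (-2.55, adjusted p = 0.0115, edgeR). The Itgae call was lost without spleen control 1, 2 or 3 (adjusted p up to 0.0616, edgeR), limma did not call Rgs16 (adjusted p = 0.141), and Itgb1 was called in 5 of the 15 fits that each left out a library. Peritoneal dDC libraries had Id3 (-1.67, adjusted p = 0.0318, edgeR) lower and Id2 (1.49, 0.0166) and Itgb1 (0.91, 0.0175) higher than spleen dDC libraries, where 0.906% of all genes passed; Id2 and Id3 encode inhibitors of E proteins. With a library left out, Id3 was called in 7 of the 15 fits, Itgb1 in 10 and Id2 in 13. No gene of the 4 lists was called between thymus and spleen in either genotype, where 0.603% of all genes were called in controls and 0.179% in dDC mice.

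**Figure D4:**
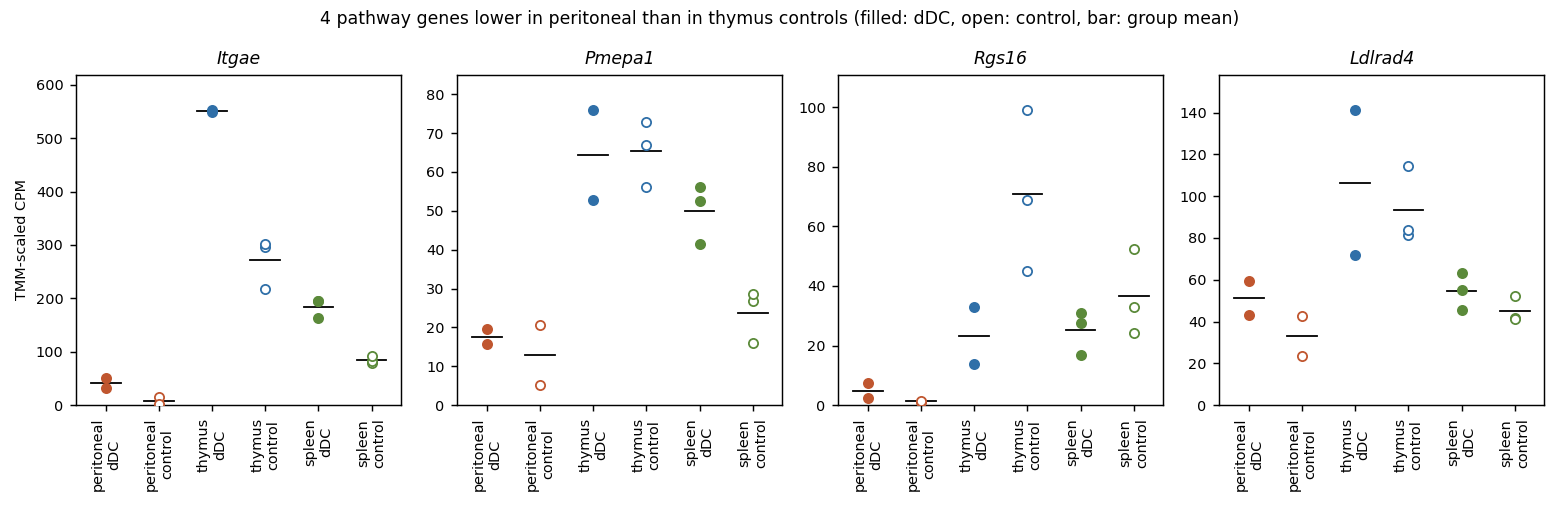
TMM-scaled CPM of Itgae, Pmepa1, Rgs16 and Ldlrad4 in every library, each panel with its own axis from 0; filled points are dDC and open points control libraries, and bars are group means. In the peritoneal controls Itgae stood at 14.5 and 2.03 CPM, against 217 to 301 CPM in thymus controls.

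Between genotypes, none of the 10 genes differed past the threshold in any tissue. In peritoneal dDC against control libraries 0 of the 10 were called, where 0.00543% of all genes were (1 gene). In thymus and in spleen 0 of the 10 were called, where 0% of all genes were, and averaged over the tissues 0 of the 10 were called, where 0.076% of all genes were. The count was 0 as well by DESeq2 and by limma in all of these. At an unadjusted p under 0.05 there were 1 of the 10 in the peritoneal cavity, 0 in thymus, 0 in spleen and 2 in the average, where 6.36%, 6.57%, 4.27% and 9.31% of all genes reached it.

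The largest averages over tissues in size were negative and belonged to Itgb8 and Smad7. Itgb8 differed by -0.98 in the average (95% interval -1.75 to -0.21, unadjusted p = 0.0169, adjusted p = 0.422, edgeR). It was below its tissue's control mean in 7 of 7 dDC libraries, with differences of -1.22 in the peritoneal cavity, -0.76 in thymus and -0.97 in spleen. In spleen its groups did not overlap. In the peritoneal cavity the direction rested on peritoneal control 2, without which the difference was 0.21. The average and the count of 7 of 7 therefore rest partly on that library.

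Smad7 differed by -0.37 in the average (95% interval -0.71 to -0.03, unadjusted p = 0.0337, adjusted p = 0.494, edgeR). Its largest difference was in the peritoneal cavity, -0.93 (unadjusted p = 0.00894, adjusted p = 0.601, edgeR), at -0.17 in thymus and -0.02 in spleen. The peritoneal groups did not overlap, and without peritoneal control 2 the difference there was -0.53. Skil was below its tissue's control mean in 7 of 7 dDC libraries, with an average of -0.28 (95% interval -0.62 to 0.06, adjusted p = 0.627, edgeR), and in the peritoneal cavity it was at 0.04 without peritoneal control 2. Its count of 7 of 7 rests partly on that library as well.

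For the remaining genes the intervals of the average give the differences compatible with these libraries, not the size of change that would have been called. Tgfbr2 was at 0.13 (95% interval -0.12 to 0.38), Lrrc32 at -0.07 (-0.35 to 0.21) and Ski at -0.14 (-0.50 to 0.23 on the log2 scale). Tgfbr1 was at -0.34 (-0.73 to 0.06) and Furin at 0.24 (-0.31 to 0.78). Tgfb1, at -0.10 (-0.99 to 0.79), and Smad3, at 0.08 (-0.75 to 0.92), were the least precise, and a change of 1.5-fold in either direction lay within their intervals. The groups did not overlap for 4 of the 10 genes in the peritoneal cavity, against 34.1% of all genes, for 3 of the 10 in thymus, against 19.4%, and for 2 of the 10 in spleen, against 10.1%.

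**Figure D5:**
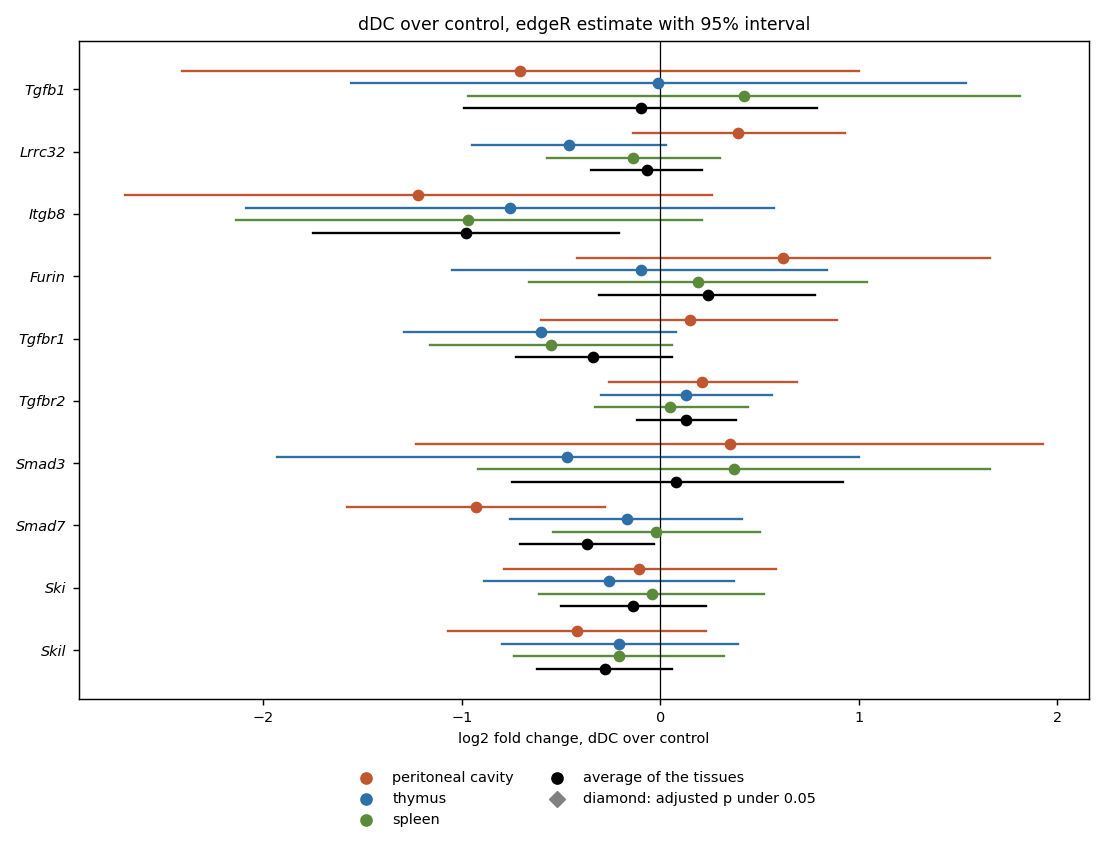
Log2 differences of dDC over control libraries for the 10 genes in each tissue and in their average (black), with 95% intervals from the edgeR fit. Most intervals span 0; those of Itgb8 and Smad7 in the average and of Smad7 in the peritoneal cavity do not, and none of these passed the adjusted p of 0.05.

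Whether the genotype difference itself varied between tissues was tested in the same fit, and 0 of the 10 genes were called in any pair of tissues, where 0% of all genes were; DESeq2 and limma also called 0. At an unadjusted p under 0.05 there was 1 of the 10 for peritoneal cavity minus spleen, Smad7 (-0.91, adjusted p = 0.998, edgeR), against 4.89% of all genes. There was 1 for peritoneal cavity minus thymus, Lrrc32 (0.85, adjusted p = 0.84, edgeR), against 5.72%, and 0 for thymus minus spleen, against 5.06%. Without peritoneal control 2 neither reached it: Smad7 was at -0.51 (unadjusted p = 0.222, edgeR) and Lrrc32 at 0.65 (unadjusted p = 0.101, edgeR). Lrrc32 differed by 0.39 in the peritoneal cavity and by -0.46 in thymus, with groups apart in opposite directions.

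Of the 64 genes of the wider lists tested, 2 rose with the genotype in the average over tissues, where 0.076% of all genes were called. Both belong to the activation list. The lists were chosen with earlier results of these data known, so the count beside this share is a description and no test. Itgb1, the beta-1 integrin chain, which pairs with alpha-v among others, had 722 and 595 CPM in peritoneal dDC libraries and 344 and 306 CPM in peritoneal controls, 329.5 and 316 CPM in thymus dDC libraries and 129, 159 and 141 CPM in thymus controls, and 353, 343 and 354 CPM in spleen dDC libraries and 186, 151 and 221 CPM in spleen controls. The groups did not overlap in any tissue. Nrp1, a surface receptor known to bind latent TGF-beta, had 1066 to 1406 CPM in the 7 dDC libraries and 681 to 1041 CPM in the 8 controls. Itgb1 rose by 1.03 (adjusted p = 0.0015, edgeR) and Nrp1 by 0.62 (adjusted p = 0.00293, edgeR), and both calls held without each of the 15 libraries. Itgae, at 1.48, did not pass (adjusted p = 0.129, edgeR), although its dDC libraries stood above the controls in every tissue. Ranges were apart for 34.1% of all genes in the peritoneal cavity, 19.4% in thymus and 10.1% in spleen. The target list's median was -0.31 in the average, beside -0.02 for all genes tested, and 0 of its 18 genes were called.

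Across the 15 libraries, which share tissue and genotype, correlations of log2 CPM between the genes are given as a description. Pearson's r was highest between Smad7 and Skil, at 0.92, followed by Tgfbr1 and Skil (0.83), Itgb8 and Skil (0.79) and Itgb8 and Smad7 (0.78). Tgfbr1 had r of 0.72 with both Smad7 and Tgfbr2, Skil had 0.69 with both Tgfbr2 and Ski, and Itgb8 had 0.54 with Tgfbr1. Lrrc32 and Tgfb1 had r of -0.21 and 0.25 with Skil. The genes most like Itgb8 were Gtf2ird1 (0.95), Egr2 (0.90) and Gm16120 (0.90); those most like Lrrc32 were Cd40 (0.85), Dennd4a (0.82) and Tagap (0.82); and those most like Tgfb1, at its low counts, were Rps15a (0.80), Ccdc88c (0.77) and Gm3788 (0.76).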

How the data were processed

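The deposited table holds raw read counts per gene. Per the submitters' processing notes, the authors used bcl2fastq 2.19.1, GSNAP and featureCounts 1.6.0 with mm10; how strand and multi-mapping reads were set is not given in the sources used here. Per the labels' protocols, cDNA was made from poly-dT primers with template switching and amplified, with no molecular identifiers and no strand marking. The 92 spike-in features, none above 5 counts, were left out. Of 45706 gene identifiers, 98.8% had a symbol.

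Counts were tested with edgeR 4.0.16 (R 4.3.3): TMM scaling, its filter on low counts over the 6 groups, and a robust quasi-likelihood fit of all 15 libraries with 9 residual degrees of freedom, two-sided, Benjamini-Hochberg over 18423 genes, threshold 0.05. The median biological coefficient of variation was 0.55. Positive values mean higher in the group named first. Alternatives were no filter, RLE scaling, library totals, DESeq2 1.42.0, limma 3.58.1, each library left out, each tissue alone and the average of spleen and thymus. Correlations used log2 CPM with a prior count of 2. The fit was also run on simulated counts, with changes planted in better-expressed genes of spleen and of peritoneal dDC libraries. That run covers neither genes at low counts, such as Tgfb1, nor the thymus, nor differences between tissues. Group and replicate came from the labels, with replicates numbered in accession order within a group. Named were all 10 genes; called list genes, up to 4 per list, direction and comparison, with a mean of at least 5 CPM; and the 3 genes most correlated with Tgfb1, Itgb8 and Lrrc32. The members and lists were chosen with earlier results of these data known. The intervals and p-values rest on the spread between libraries.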

Additional observations from a re-analysis of the deposited data

How the results depend on the processing

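The count of the 10 genes called was 0 under every alternative run for each genotype comparison and for the differences between tissues in the genotype effect. For peritoneal against thymus controls it was 3, with 1 to 4 over the alternatives. The 1 was Skil, without thymus control 3, where Tgfbr1 and Smad7 lost their calls. Peritoneal against spleen controls had 0; it was 1 without the filter, 2 by DESeq2 and 4 in the average over genotypes, which was added after the data were seen. Thymus against spleen controls had 1; it was 3 by DESeq2, 2 in that average and 0 to 1 with a library left out. Peritoneal against spleen in dDC mice had 1; it was 3 without the filter, 2 with library totals, 4 by DESeq2 and 0 to 3 with a library left out, and the 1 by limma was Lrrc32, not Skil. Thymus against spleen in dDC mice had 0; it was 1 without the filter, by DESeq2 and by limma. Peritoneal against thymus in dDC mice had 2. It was 3 without the filter, with Itgb8 added, 4 by DESeq2 and 1 to 3 with a library left out. The cause of these differences was not tested. Of 2670 results for single genes under an alternative, 33 gained and 31 lost a call, 107 without a call changed sign and 2499 did neither. Other scalings moved the median of all genes by between -0.057 and 0.025 on the log2 scale. No paired analysis was run because the labels carry no replicate numbers shared between groups. The library titles hold running numbers that mostly alternate control and dDC within a tissue, without naming pairs. These numbers run in separate blocks by tissue, so library order and tissue cannot be told apart.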
